A study of Mus musculus with 6 samples.

Results

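The genes described here code for the proteins of the cytosolic ribosome. They were taken by name from a table of read counts per gene: protein-coding genes called Rpl or Rps with a number, together with Rplp0, Rplp1, Rplp2 and Rpsa, leaving out names marked as pseudogenes. This gave 83 of the 49671 genes of the table. They fall into 31 genes of the small subunit, 43 of the large subunit, 3 of the P stalk of the large subunit and 6 paralogs. Another 6 symbols that match the pattern are not annotated as protein-coding (Rpl32l, Rpl6l, Rps12l1, Rps3a2, Rps3a3 and Rps4l), and ribosomal protein genes with other kinds of name, such as Fau, Rack1 and Rpl36al, fall outside it.

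Total RNA came from embryonic pancreata of C57BL/6J mice at 14.5 dpc, as 3 control libraries and 3 libraries of pancreata given 10 µM AMI-5. This compound blocks enzymes that transfer methyl groups to proteins, including those that methylate arginine. The labels refer to other publications for culture and treatment, and they do not say that the samples of a group are separate cultures or animals, so p-values cover no more than the spread among the 3 libraries of a group, which can be technical. The labels tie an older version of the directional library kit to the samples marked A and a newer one to the rest. The control titles carry A with a number and the AMI-5 titles carry Am with a number. If the mark A means the controls alone, kit and treatment coincide and cannot be told apart.

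A ribosome holds 1 copy of nearly every one of these proteins, and cells make them in matched amounts. Their mRNAs are short and abundant, and they were reverse transcribed and inserted back into the genome many times during evolution. The resulting processed pseudogenes lack introns and can be almost identical to the spliced mRNA, so a short read from the mRNA may match the gene and a copy equally well. The comparison therefore also asks how the counts of these genes depend on their copies.

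Of the 10236 processed pseudogenes in the GENCODE M21 annotation of build mm10, 2382 were assigned to a ribosomal protein gene, as copies covering at least 50% of its coding sequence, and 1825 of these are in the count table. The number of copies per gene ran from 0 to 177, with a median of 20. Rpl7a had the most. In what follows, genes with more than 20 copies are called many-copy genes (39 genes) and the others few-copy genes (44 genes). The number of copies says little about how alike they are, so the share of each gene's coding 50-mers (all stretches of 50 bases) that also occur in another annotated gene was measured as well. Its median was 90.3%. In 29 genes every coding 50-mer was found elsewhere, and in 3 genes, the paralogs Rpl3l and Rpl39l among them, none was.

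The 3 pairs printed next show how closely a leading copy can follow its gene, each as 60 bases of the coding sequence of the gene and the aligned bases of its leading copy, at the window with the most differences in that pair. Sequences are from the GENCODE M21 transcripts of mm10, 5′ to 3′ in the sense of the gene, and capitals mark the bases at which gene and copy differ. Rpl4 (chr9:64174920-64174979, plus strand) differs at 4 bases from Gm5835 (chr1:143094448-143094507, minus strand). Rps3a1 (chr3:86141333-86141392, minus strand) differs at 2 from Rps3a3 (chr13:108670803-108670862, plus strand). Rpl23 (chr11:97778319-97778378, minus strand) differs at 1 from Gm9794 (chr6:66875458-66875517, minus strand).
Rpl4: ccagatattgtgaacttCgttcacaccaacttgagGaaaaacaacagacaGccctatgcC
Gm5835: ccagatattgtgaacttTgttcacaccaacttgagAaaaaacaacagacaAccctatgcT
Rps3a1: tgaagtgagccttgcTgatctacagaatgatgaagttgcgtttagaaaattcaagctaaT
Rps3a3: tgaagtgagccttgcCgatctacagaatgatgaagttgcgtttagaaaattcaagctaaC
Rpl23: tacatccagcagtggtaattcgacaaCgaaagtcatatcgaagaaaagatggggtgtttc
Gm9794: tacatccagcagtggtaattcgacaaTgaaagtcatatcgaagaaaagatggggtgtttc
Over the whole aligned coding sequence, Gm5835 differs from Rpl4 at 34 bases, with an identical run of up to 150. Rps3a3 differs from Rps3a1 at 8 of 792 coding bases, and Gm9794 from Rpl23 at 1 of 420.

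Counts per library summed to between 12445425 and 13321899 in the controls and between 22894312 and 24805188 with AMI-5, so that genes with few reads were measured more precisely with AMI-5. Ribosomal protein genes took 1.90% to 2.09% of the counts of a control library and 1.41% to 1.59% of those of an AMI-5 library. Values are given as CPM (counts scaled to a common library size after TMM adjustment in edgeR), as mean ± SD over n = 3 libraries where not listed singly, and a log2 fold change is AMI-5 relative to control, with its standard error. Markers of pancreatic epithelium summed to 9299 to 11796 CPM in the controls and 11133 to 13322 CPM with AMI-5. Cpa1 makes up most of this sum and was the 1 of 10 markers that rose (0.33), while 4 fell and the median was −0.10. Markers of mesenchyme summed to 7323 to 7715 and 7120 to 8152 CPM, and those of endothelium to 329 to 401 and 269 to 389 CPM. Some other cell types moved with the groups. Erythroid markers summed to 4.15 to 10.5 CPM against 42.2 to 123 CPM, leukocyte markers to 84.1 to 107 against 123 to 148, and neural markers to 69.96 to 78.1 against 50.4 to 59.7. Most of the erythroid sum is Hba-a1 and Hbb-bt, with 72.3% and 58.3% of exonic 50-mers found in other genes. Alas2, with 11.5% shared, rose as well (3.50). In bulk RNA, fewer cells of a type and less RNA per cell cannot be told apart, and the part of these cells in the results on ribosomal protein genes was not tested.

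With AMI-5, counts on the ribosomal protein genes themselves were somewhat lower and counts on their processed copies were several-fold higher. The 83 genes together summed to 20815, 19081 and 17938 CPM in control libraries 1, 2 and 3, and to 16441, 15195 and 14790 CPM in AMI-5 libraries 1, 2 and 3. Every AMI-5 library lay under every control library, and the means differed 1.25-fold (19278 ± 1449 against 15476 ± 860 CPM). The 1825 copies summed to 1728, 1925 and 1822 CPM in the controls and to 15257, 14165 and 13773 CPM with AMI-5. That was 7.89-fold more, with a gap between the groups far wider than the spread within either. Genes and copies together came to 21103 ± 1394 CPM in the controls and 29874 ± 1630 CPM with AMI-5, a 1.42-fold higher value. Copies held 7.67% to 9.22% of these counts in the controls and 48.1% to 48.2% with AMI-5. Which reads of a gene with identical copies came from the gene and which from a copy cannot be told from these counts, so the count of each such gene is uncertain. The part of the kit version and of the greater depth of the AMI-5 libraries in this shift was not tested.

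**Figure D1:**
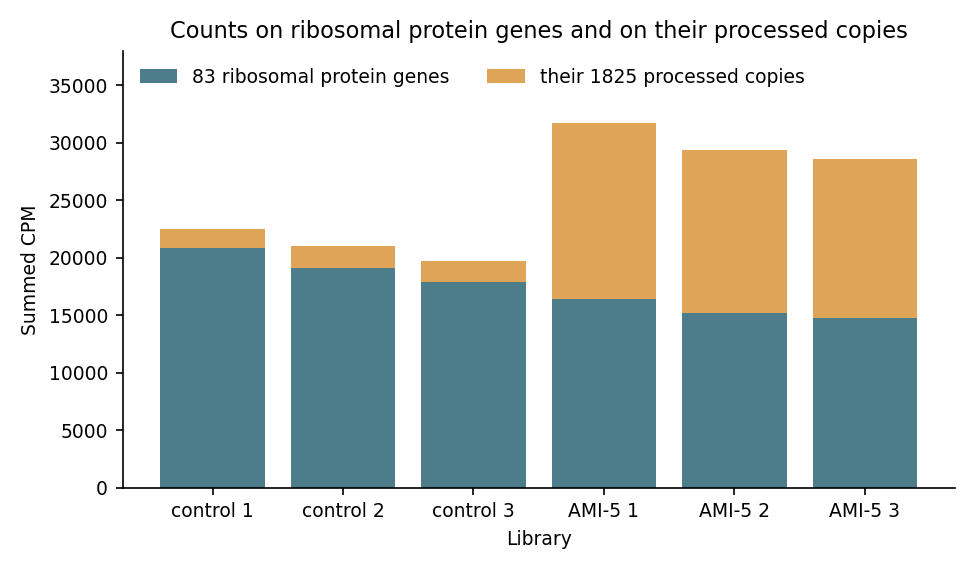
Summed CPM of the 83 ribosomal protein genes (lower bars) and of their 1825 processed copies (upper bars) in each of the 6 libraries. The lower bars are shorter with AMI-5 in all 3 libraries, and the upper bars grow from at most 1925 CPM to at least 13773 CPM.

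Processed copies of other genes also gained reads. Among processed pseudogenes not assigned to them, 1256 of the 1336 that passed the filter on low counts rose with AMI-5 and 24 fell. Of the copies of ribosomal protein genes, 422 passed that filter, and 380 of these were called higher and 10 lower (edgeR's quasi-likelihood test, adjusted p under 0.05). A copy read only in the AMI-5 libraries passes the filter through the group in which it is high, so these counts describe the copies and are not a test of them. Without any filter, 215 copies had reads in all 3 AMI-5 libraries and in no control library, and 488 had no read at all. Copies that passed the filter were closer to their gene, with a median identity of 97.4%, than those that did not (85.8%). The leading copy of a gene held a median of 65.9% of the reads on its copies, and less for genes such as Rps28, whose copies Gm10443 and Gm10263 had like counts.

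Of the 83 genes, 80 passed the filter on low counts; the paralogs Rpl3l, Rpl10l and Rpl39l did not. By edgeR's quasi-likelihood test with Benjamini-Hochberg adjustment over 17519 genes, 21 of the 80 rose and 36 fell, while 23 did not pass. Over all genes tested 27.5% were called higher and 26.6% lower, 54.1% in all, so that 21 of 80 higher is close to that share and 36 of 80 lower is above it. All genes tested include 1758 processed pseudogenes, of which 1636 were called higher. The share called higher is therefore smaller among the remaining genes. The median log2 fold change of the 80 genes was −0.13, against −0.0013 for all genes tested and −0.06 for the 14571 protein-coding genes tested. The quartiles of the 80 genes were −0.67 and 0.31. Single genes ran from −3.14 (Rpl35) to 6.02 (Rps3a1), and of the genes called, 9 rose and 13 fell at least 2-fold. The CPM ranges of the groups did not overlap for 58 of the 80 genes, 21 upward and 37 downward, against 61.9% of all genes tested. Genes whose proteins sit in the ribosome in equal numbers had counts that moved in opposite directions by large amounts.

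Splitting by the number of copies separated these changes little. Among the 39 many-copy genes 10 rose and 16 fell, with a median of −0.08, and among the 41 few-copy genes tested 11 rose and 20 fell, with a median of −0.29. In both classes the part called higher is close to the 27.5% of all genes tested, and the part called lower is above the 26.6%. Over the 80 genes, the Spearman correlation of the log2 fold change with the number of copies was −0.014, given as a description since genes share libraries and families of sequence. Many-copy genes summed to 5154 ± 402 CPM in the controls and 3861 ± 205 with AMI-5, a 1.33-fold lower value. Few-copy genes summed to 14124 ± 1050 and 11614 ± 660 CPM, 1.22-fold lower. The share of counts on copies differed between many-copy and few-copy genes in every library. Copies of many-copy genes held 15.9% to 19.3% of the counts of gene and copies in the controls and 58.4% to 58.98% with AMI-5. For few-copy genes these shares were 4.27% to 4.96% and 43.3% to 43.6%. The fold increase of the copies' sum was 4.83 for many-copy genes and 12.9 for few-copy genes.

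**Figure D2:**
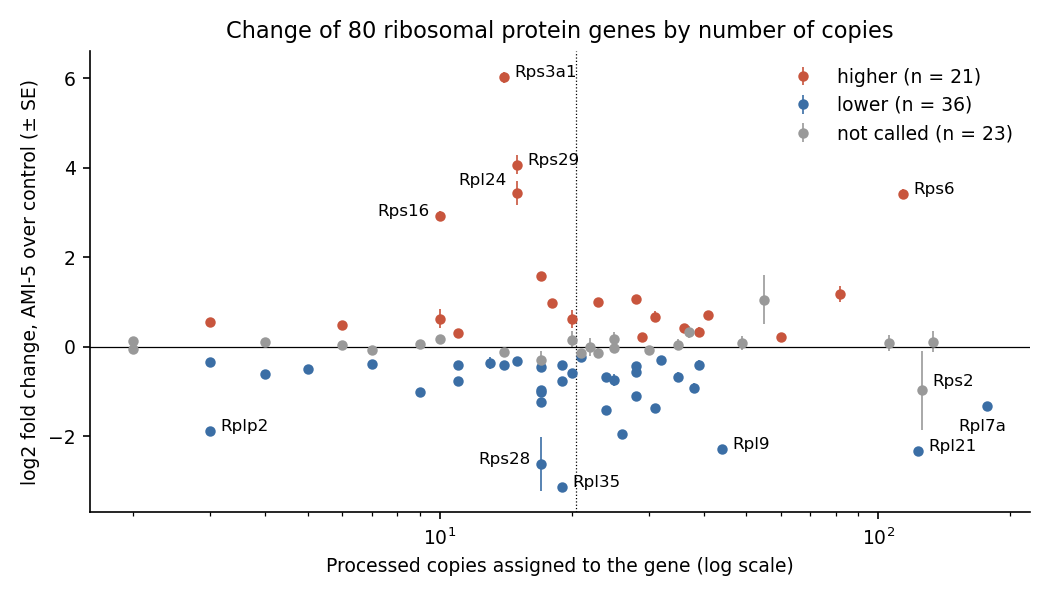
Log2 fold change (AMI-5 over control, ± SE) of the 80 tested ribosomal protein genes against the number of their processed copies on a log scale; the dotted line separates few-copy from many-copy genes and colour shows the call at adjusted p under 0.05. Large rises (Rps3a1, Rps29, Rpl24, Rps16) and large falls (Rpl35, Rps28) both occur among few-copy genes.

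The 8 genes with the most copies were Rpl7a, Rpl29, Rps2, Rpl21, Rps6, Rpl17, Rpl23a and Rpl31, and no direction was common to them. Rpl7a, a large-subunit protein with 177 copies, had 307, 291 and 274 CPM in the controls and 123, 114 and 113 CPM with AMI-5. It fell by 1.32 ± 0.06 on the log2 scale without overlap between the groups (edgeR's test, adjusted p = 5.0e-09). Rps6, the small-subunit protein phosphorylated by S6 kinases, has 114 copies and had 3.87, 4.88 and 3.56 CPM in the controls against 46.4, 43.1 and 41.4 CPM with AMI-5. It rose by 3.40 ± 0.11, again without overlap. Rpl21 (123 copies) fell by 2.34, Rpl23a (82 copies) rose by 1.18 and Rpl31 (60 copies) rose by 0.22. Rpl29 (133 copies, log2 fold change 0.11) and Rpl17 (106 copies, 0.08) did not pass, and neither did Rps2, which is described further on. The rise of Rpl31 was lost without control replicate 2 (adjusted p = 0.117) or 3 (0.0998) and without AMI-5 replicate 1 (0.0641) or 2 (0.0765).

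Of the 8 tested genes with the fewest copies, all but Rplp2 lay between −0.60 (Rpl41) and 0.54 (Rpl14) on the log2 scale. Rpl8, at the core of the large subunit, with 2 copies, had 1157, 1031 and 991 CPM against 1094, 990 and 970 CPM and did not pass (−0.06). Rps3, which lines the entry of the mRNA channel, has 3 copies, none of them in the count table. It had 1794, 1599 and 1504 CPM in the controls and 1370, 1263 and 1215 CPM with AMI-5, so that it fell by 0.35 ± 0.07 without overlap (adjusted p = 0.00182, edgeR's test). Rpl4 (4 copies) stayed between 1313 and 1574 CPM in all 6 libraries, with a log2 fold change of 0.10 that did not pass. Rpl14 (3 copies) rose by 0.54, Rpl41, which codes for a very short basic peptide, fell by 0.60, and Rpl7l1 fell by 0.50.

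The share of coding sequence found in another gene went with the level of a gene more than the number of copies did. Per kb of mRNA and over the 80 tested genes, the Spearman correlation of this share with the level was −0.69 in the controls and −0.73 with AMI-5, and that of the number of copies with the level was −0.38 and −0.48. The 4 core genes (leaving out paralogs) with under 25% of coding 50-mers shared, such as Rps3 and Rpl8, had a median of 1078 CPM per kb in the controls and 1084 CPM per kb with AMI-5. The 29 genes whose coding sequence was shared in full had medians of 17.1 and 22.5 CPM per kb. In the controls the level per kb of the 77 core genes ran from 1.10 (Rpl24) to 2152 (Rplp1), a 1952-fold range, and the upper quartile was 22.4 times the lower one. With AMI-5 it ran from 4.64 (Rpl29) to 1429 (Rplp1), and the quartiles differed 10.97-fold. When the counts of the copies were added to those of their gene, the quartiles differed 13.9-fold in the controls and 3.30-fold with AMI-5. The 29 fully shared genes then had medians of 28.4 CPM per kb in the controls and 222 CPM per kb with AMI-5. The sum with copies thus brought the levels of the core genes nearer to each other in the AMI-5 libraries than in the controls.

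**Figure D3:**
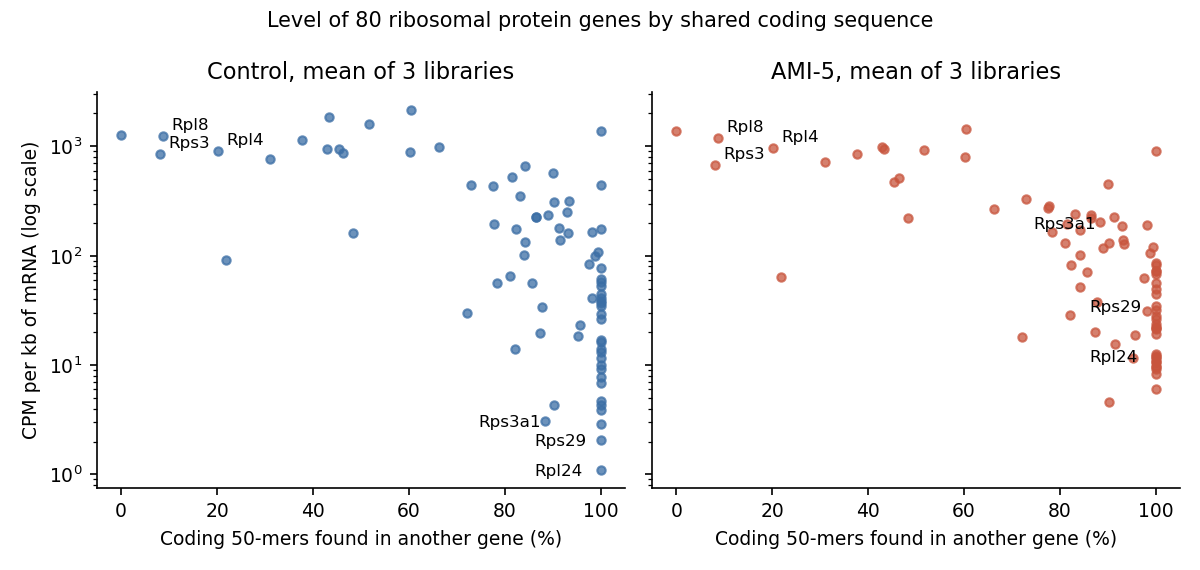
Level of the 80 tested ribosomal protein genes, as mean CPM per kb of mRNA over 3 libraries on a log scale, against the percent of their coding 50-mers found in another annotated gene, for control (left) and AMI-5 (right). Rps3, Rpl8 and Rpl4, with little shared sequence, lie near or above 672 CPM per kb in both groups, whereas genes shared in full reach down to 1.10 CPM per kb in the controls.

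Changes by class of shared sequence were as follows. Of the 5 tested genes with under 25% shared, none rose and 2 fell (Rps3 and the paralog Rpl7l1), and the values lay between −0.50 and 0.14. Of the 31 genes with 25% to under 90% shared, 6 rose and 16 fell, with a median of −0.40, and of the 15 with 90% to under 100% shared 2 rose and 10 fell, with a median of −0.32. Of the 29 genes shared in full, 13 rose and 8 fell, with a median of 0.17. With 27.5% of all genes tested called higher and 26.6% lower, 13 of 29 higher is above that share and 8 of 29 lower is close to it. Over the 80 genes the Spearman correlation of the shared percent with the log2 fold change was 0.24. It was 0.11 for the length of the mRNA and −0.24 for the GC content of the coding sequence.

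With each gene's copies summed into it before the fit, 56 of the 80 genes rose with AMI-5 and 14 fell, where 26.7% of the 17097 genes of that fit were called higher and 26.3% lower. The median log2 fold change became 0.84, against −0.0017 for all genes. Copies of other genes were not summed into their genes, so these values for all genes are not a like-for-like background. Most tested copies of ribosomal protein genes were higher with AMI-5, so the sums lean upward from the outset. The calls after summing therefore describe the sums and are not a test of these genes. Of the 36 genes that fell alone, 17 were higher, 13 lower and 6 not called once summed. All 21 that rose alone were higher when summed, and of the 23 not called alone 18 were higher, 1 was lower and 4 were again not called. Among the 29 genes shared in full, 25 rose and 2 fell, with a median of 2.56, whereas the 5 genes with little shared sequence had 1 that rose and 2 that fell, with a median of −0.05. The Spearman correlation of the summed change with the shared percent was 0.58, and with the number of copies 0.11.

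**Figure D4:**
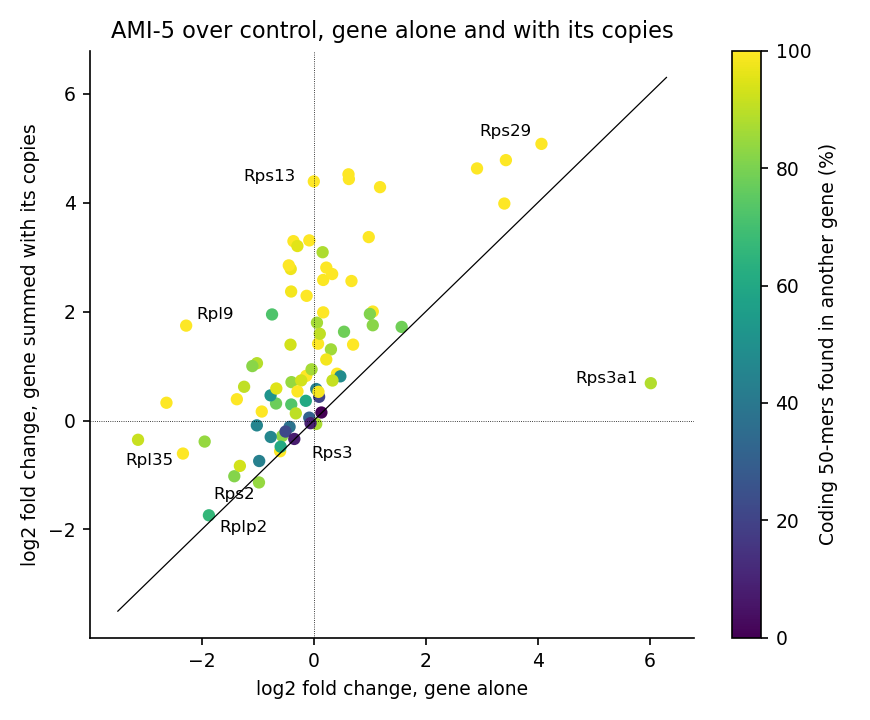
Log2 fold change (AMI-5 over control) of each of the 80 tested genes counted alone (horizontal axis) and summed with its processed copies (vertical axis), coloured by the percent of coding 50-mers found in another gene; the diagonal line marks equal values. Most points lie above the line and Rps3a1 lies far under it. Rps3 has no copy in the count table, so nothing was added to it and it lies on the line by construction.

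Reads on the copies were higher in all AMI-5 than in all control libraries for 76 of the 80 tested genes and lower for 1, Rps3a1. In the means of the controls the copies held more CPM than the gene for 14 genes, and with AMI-5 for 52. The copy with the most reads was Gm9794, a copy of Rpl23 with 99.8% identity. It had 14.3, 16.2 and 14.02 CPM in the controls and 662, 619 and 597 CPM with AMI-5, while Rpl23 itself, a large-subunit protein facing the small subunit, had a log2 fold change of 0.06 that did not pass (adjusted p = 0.511, edgeR's test). The next most read copies were Rpl14-ps1, Gm6204 (of Rps14), Gm11478 (of Rpl13a), Gm6472 (of Rps7) and Rpl10a-ps1. Rpl10a-ps1, with 100% identity to its gene, went from 5.76 to 6.82 CPM in the controls to 391 to 434 CPM with AMI-5. Gm6204 went from 7.20 to 8.23 CPM to 465 to 510 CPM, and Gm11478 from 13.6 to 15.8 CPM to 419 to 475 CPM. Rpl14-ps1 started higher, at 46.4 to 51.5 CPM, and reached 435 to 497 CPM. Gm6472 differed from these: it had 273, 218 and 140 CPM in the controls and 324, 299 and 289 CPM with AMI-5, and its change did not pass.

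In some families the reads sat on different members in the 2 groups. Rps3a1, on chromosome 3 (86137940 to 86142702, minus strand), codes for a small-subunit protein and had 3.64, 3.28 and 2.20 CPM in the controls, from 47, 45 and 29 reads, and 212, 193 and 188 CPM with AMI-5. It rose by 6.02 ± 0.12 on the log2 scale (adjusted p = 6.5e-12, edgeR's test), more than any other ribosomal protein gene tested, with no overlap. Its copy Rps3a3, printed above, had 242, 242 and 216 CPM in the controls and 51.1, 47.1 and 46.3 CPM with AMI-5, so that gene and copy exchanged rank. A second copy, Rps3a2, had 0.155, 0.0729 and 0 CPM in the controls and 57.3, 53.5 and 53.6 CPM with AMI-5. Rps3a1 with all its copies had 249, 248 and 222 CPM against 407, 373 and 370 CPM, a log2 fold change of 0.69 in place of 6.02.

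**Figure D5:**
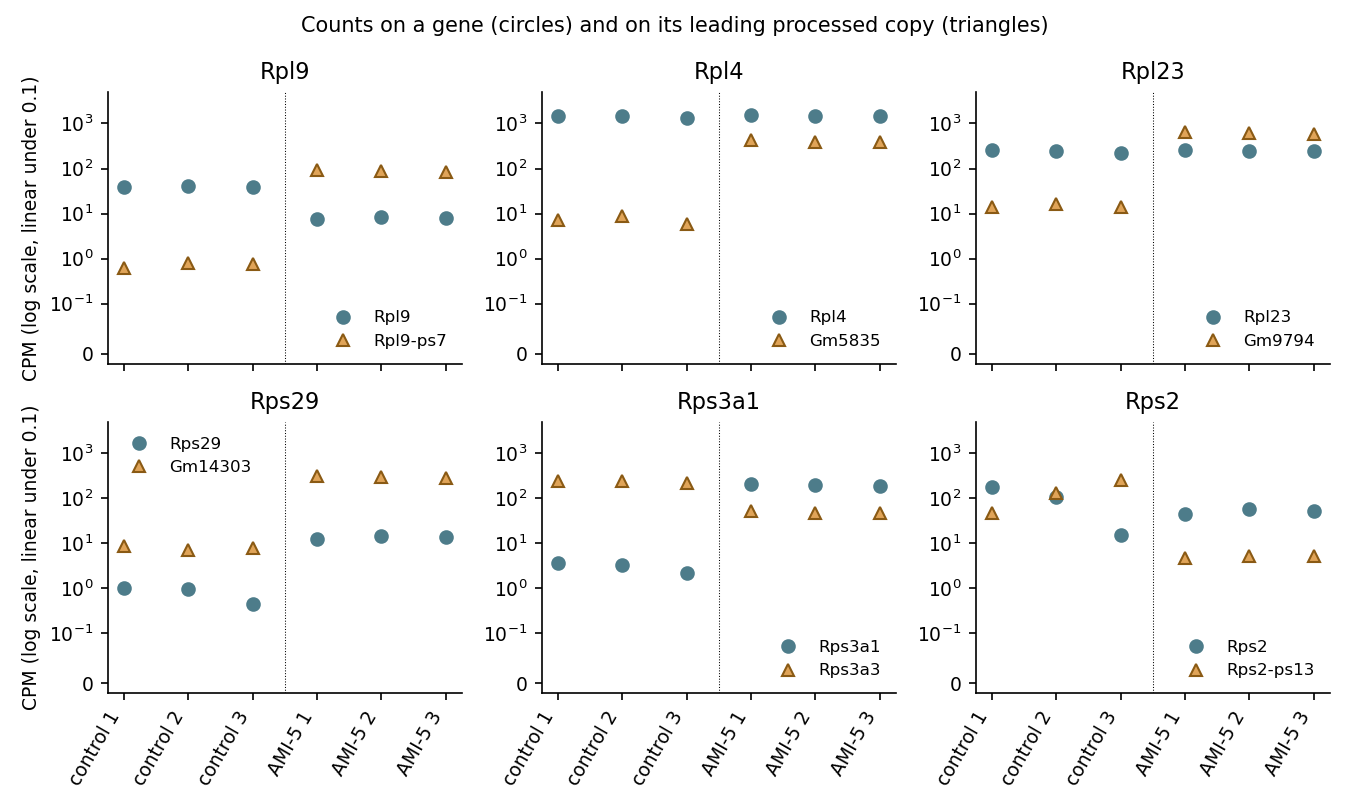
CPM of 6 ribosomal protein genes (circles) and of the leading copy of each (triangles) in the 6 libraries, on an axis that is logarithmic above 0.1 CPM and linear under it; the dotted line separates control from AMI-5. The copies of Rpl9, Rpl4, Rpl23 and Rps29 rise with AMI-5, those of Rps3a1 and Rps2 fall, and Rps2 and its copy diverge across the 3 control libraries.

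Rps2, an arginine-methylated protein at the mRNA entry of the small subunit, had different counts among the control libraries. Its level was 181, 109 and 15.2 CPM in control libraries 1, 2 and 3, and 44.2, 57.9 and 53.0 CPM with AMI-5. Its copy Rps2-ps13 on the X chromosome ran the other way in the same controls, with 47.5, 128 and 253 CPM, and had 4.85, 5.35 and 5.15 CPM with AMI-5. Gene and copies together were far steadier, at 251.5, 256.1 and 285.5 CPM in the controls and 103, 130 and 125 CPM with AMI-5. Alone, Rps2 had a log2 fold change of −0.98 ± 0.88 that did not pass (adjusted p = 0.412, edgeR's test). Without control replicate 3 it was −1.49 (adjusted p = 0.0212) and without control replicate 1 it was −0.28. Summed with its copies Rps2 fell by 1.14 (adjusted p = 2.7e-06).

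Rps28, a small protein of the small-subunit head, showed the same spread among controls. It had 196, 119 and 47.4 CPM in control libraries 1, 2 and 3 and 18.8, 20.2 and 19.4 CPM with AMI-5, while its copies had 4.11, 42.6 and 83.1 CPM in the controls and 201, 186 and 167 CPM with AMI-5. It fell by 2.63 ± 0.60 with all libraries (adjusted p = 0.0231, edgeR's test). The change did not pass without control replicate 2 (adjusted p = 0.066) or without AMI-5 replicate 1, 2 or 3 (0.0801, 0.0792 and 0.0816), and with the copies summed in the value was 0.33 and not called. Rpsa, which sits on the small subunit, had 201, 134 and 144 CPM in the controls against 181, 166 and 160 CPM. Its copy Rpsa-ps10 had 132, 326 and 223 CPM against 270, 241 and 243 CPM, again lowest in the control library in which the gene was highest. The change of Rpsa did not pass (0.08) except without control replicate 1 (0.28, adjusted p = 0.0085), and summed with its copies Rpsa was higher by 0.53.

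Among the 31 small-subunit genes 10 rose and 12 fell, with a median log2 fold change of 0.04. The shares over all genes tested were 27.5% higher and 26.6% lower. After Rps3a1, the largest rise was that of Rps29, a zinc-binding protein of the head. It had 1.01, 0.947 and 0.455 CPM in the controls, from 13, 13 and 6 reads, and 12.7, 14.4 and 13.6 CPM with AMI-5 (4.07 ± 0.21, adjusted p = 1.1e-08, edgeR's test). Its identical copy Gm14303 had 7.14 to 8.91 CPM in the controls and 284 to 313 CPM with AMI-5, in both groups far more than the gene. Rps16 rose by 2.92, from 3.03 to 3.35 CPM to 22.7 to 25.4 CPM, and Rps24 by 1.57, from 88.0 to 93.9 CPM to 248 to 293 CPM. For both the groups lay apart, and for both the leading copy rose as well: Rps16-ps2 from 8.96 to 10.8 CPM to 261 to 292 CPM, and Rps24-ps3 from 68.9 to 76.2 CPM to 226 to 254 CPM.

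The largest falls in the small subunit after Rps28 were led by Rps15a. It had 445, 420 and 413 CPM in the controls and 119, 107 and 105 CPM with AMI-5, and fell by 1.95 ± 0.06 without overlap (adjusted p = 1.6e-10, edgeR's test). Its copies went from 4.32 to 7.52 CPM to 208 to 233 CPM, and the log2 fold change with copies summed in was −0.39. Rps10, another arginine-methylated protein, fell by 0.42 alone and was higher by 1.39 when summed. Rps4x, whose human counterpart has a partner gene on the Y chromosome, fell by 0.32 alone and was not called when summed (0.13). Rps27a, made as a fusion with ubiquitin, had 4.88 to 7.58 CPM in the controls and 6.99 to 7.39 CPM with AMI-5, and its change did not pass (0.17).

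Among the 43 large-subunit genes 10 rose and 20 fell, with a median of −0.13, beside 27.5% higher and 26.6% lower over all genes tested. Rpl24, a late-joining protein of the large subunit, had 0.31, 1.02 and 0.909 CPM in the controls, from 4, 14 and 12 reads, and 8.35, 7.75 and 8.45 CPM with AMI-5. It rose by 3.43 ± 0.27 (adjusted p = 5.8e-07, edgeR's test), without overlap, and its copies Gm12254 and Gm9385 reached 104 to 118 and 84.5 to 96.8 CPM with AMI-5. At the other end Rpl35, at the tunnel exit, had 144, 131 and 118 CPM in the controls and 14.85, 14.79 and 14.95 CPM with AMI-5. It fell by 3.14 ± 0.08, further than any other ribosomal protein gene that was tested, and its log2 fold change was −0.35 with the copies summed in. Rpl9, a large-subunit protein near the stalk, had 38.4, 41.2 and 38.5 CPM against 7.76, 8.46 and 8.07 CPM, and fell by 2.28 ± 0.08 (adjusted p = 4.4e-10, edgeR's test). Its copy Rpl9-ps7 went from 0.62 to 0.802 CPM to 83.0 to 94.2 CPM, and with all copies summed in the direction turned, to 1.74 higher. Rpl21 had 47.0, 48.0 and 48.9 CPM against 9.83, 10.8 and 7.86 CPM, and remained lower when summed (−0.61).

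Rpl5 and Rpl11, which travel together with an RNA of the large subunit and can bind Mdm2, the ubiquitin ligase of p53, differed in direction. Rpl5 rose by 0.98, from 25.3 to 28.4 CPM to 52.2 to 56.6 CPM. Rpl11 had 11.6, 17.1 and 12.05 CPM against 10.4, 10.8 and 10.6 CPM and fell by 0.36 (adjusted p = 0.0478, edgeR's test). This call was lost without control replicate 2 (−0.17, adjusted p = 0.261) and without AMI-5 replicate 1, 2 or 3 (adjusted p from 0.0941 to 0.118), and also with DESeq2 (0.101). When summed with their copies both were higher, Rpl5 by 3.37 and Rpl11 by 3.29. Rpl10, among the last proteins to join the large subunit, had a log2 fold change of −0.13 that did not pass. Rpl38, whose loss in mice alters the pattern of the axial skeleton, rose by 0.63, from 1.90 to 2.71 CPM to 3.25 to 4.40 CPM, a call lost without control replicate 3 (adjusted p = 0.0943) or AMI-5 replicate 1 (0.102).

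The P stalk, which recruits the translation factors that hydrolyse GTP, is built from Rplp0, Rplp1 and Rplp2. Rplp2 had 446, 400 and 403 CPM in the controls and 116, 114 and 111 CPM with AMI-5. It fell by 1.87 ± 0.06 without overlap (adjusted p = 1.5e-10, edgeR's test). Its 3 copies held 0.18 CPM in the controls and 10.2 CPM with AMI-5, and with the copies summed in the log2 fold change was −1.74. Of its coding 50-mers 66.2% occur in other genes, and reads dropped or placed elsewhere would not show in this sum. Rplp1, its partner in the stalk dimer, had 1176, 1040 and 1006 CPM against 775, 688 and 676 CPM and fell by 0.59. Rplp0, the base of the stalk, had 1288, 1204 and 1143 CPM against 1180, 1064 and 1049 CPM, overlapping ranges with a log2 fold change of −0.14 that did not pass (adjusted p = 0.0906, edgeR's test). It passed without control replicate 3 (−0.19, adjusted p = 0.0428) and without AMI-5 replicate 1 (−0.19, adjusted p = 0.0352). Its copies Gm9625 and Gm8730 rose from at most 4.18 and 3.10 CPM to at least 205 and 178 CPM, and with copies summed in Rplp0 was higher by 0.36.

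Paralogs with a restricted pattern of expression were at or near the limit of detection. Rpl10l, a gene of the testis, had 1 read in all 6 libraries, and Rpl39l had 4, 0 and 0 reads in the controls and 3, 0 and 2 with AMI-5. Rpl3l, the form of striated muscle, had 4, 1 and 0 reads against 10, 15 and 14 reads. The 3 paralogs that were tested all moved. Rps27l, a target of p53, rose by 0.47 (80.1 ± 9.7 against 111 ± 8.1 CPM), while its main gene Rps27 did not pass (−0.29). Rpl22l1 fell by 0.40 (74.0 ± 5.5 against 56.2 ± 2.2 CPM) and Rpl22 did not pass (−0.08). Rpl7l1 fell by 0.50 (120 ± 12.5 against 84.6 ± 2.3 CPM) and Rpl7 fell by 0.67 (506 ± 33.8 against 317 ± 17.8 CPM). Of the main genes of the untested paralogs, Rpl3 fell by 0.29 and Rpl39 did not pass (−0.04). The call of Rpl3 was lost without control replicate 2 (−0.21, adjusted p = 0.0686) or AMI-5 replicate 3 (−0.27, adjusted p = 0.0526).

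Mitochondrial ribosomal protein genes gave a comparison set with little shared sequence: a median of 2.81% of exonic 50-mers shared, against 23.9% for the cytosolic genes tested. Of 74 mitochondrial genes tested, 5 rose and 29 fell. With 27.5% of all genes tested called higher and 26.6% lower, the first count is under that share and the second above it. The median was −0.16, close to the −0.13 of the cytosolic genes, of which 21 of 80 rose and 36 fell. The middle of their values was narrower, with quartiles of −0.32 and −0.01 against −0.67 and 0.31.

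Genes that work with the ribosomal protein genes were called in both directions, as were 27.5% (higher) and 26.6% (lower) of all genes tested. Of the ribosomal proteins outside the name pattern, Rack1, a scaffold on the small subunit with 2.72% of its exonic 50-mers shared, rose by 0.27. Fau, made as a fusion with a ubiquitin-like protein and with 29.97% shared, rose by 0.58. Rpl36al, with 22.1% shared, fell by 0.60. Of 18 other genes whose mRNAs start with the pyrimidine tract shared by ribosomal protein mRNAs (TOP mRNAs), 4 rose and 6 fell, with a median of −0.01. Tpt1 (0.61, 18.7% shared) and Eif4a2 (0.23, 13.6% shared) rose, whereas Hnrnpa1 (−0.98, 28.2% shared) and Btf3 (−0.52, 37.5% shared) fell. Of 18 regulators of these mRNAs and genes 6 rose and 7 fell, among them Eif4ebp1, a repressor of cap-dependent translation that is switched off by mTOR (0.57), Rheb, an activator of mTOR (0.24), Mycn (−0.58) and Rps6kb2, a kinase of Rps6 (−0.47). Of 11 dedicated chaperones and import factors 2 rose, Ipo7 (0.43) and Pdcd2 (0.31), and 5 fell, led by Grwd1 (−0.46) and Ipo9 (−0.36). Pdcd2 had 85.7% of its exonic 50-mers shared, so its count is uncertain, whereas Ipo7 had 1.00%.

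Of the 3 enzymes that methylate ribosomal proteins on arginine, 2 fell. Prmt1, the main enzyme of asymmetric dimethylation, had 265, 245 and 266 CPM in the controls and 178, 156 and 162 CPM with AMI-5, and fell by 0.64 ± 0.06 without overlap (adjusted p = 5.4e-06, edgeR's test). Prmt5, which dimethylates symmetrically and acts on Rps10, fell by 0.32, from 75.6 to 77.8 CPM to 60.9 to 61.4 CPM. Prmt3, the enzyme of Rps2, had 38.0 to 38.9 CPM against 34.4 to 35.2 CPM, and its log2 fold change of −0.14 did not pass (adjusted p = 0.0722, edgeR's test). Of 5 genes linked to the surveillance of ribosomal proteins, Trp53 fell by 0.72 and Ube2o, a ligase that removes orphan ribosomal proteins, by 0.23, and the others did not pass.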

How the data were processed

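Values were gene-level read counts, deposited by the authors without normalization in 1 table of 49763 rows, used as 3 control and 3 AMI-5 columns. The submitters' processing notes name bcl2fastq 2.19.1, GSNAP 2018-05-30, featureCounts 1.6.2 and build mm10, and the table's name marks Ensembl 87. The gene length column, deposited as merged exon bases, was read and not used in a result. Not given in the sources used here are the strand setting, the read length and the handling of reads that map to several places. This bears on every gene described, since a read shared by a gene and a copy can be dropped, split or placed on either. No columns of other samples were found. Spike-in rows (92, with 1 read) were left out.

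Symbols and classes came from GENCODE M21 (99.81% of shared identifiers at an overlapping position), coordinates of genes from the deposited table. Members and lists were chosen with earlier results of these data known. Processed pseudogenes were assigned to the gene with the best hit of blastn 2.17.0 (e-value under 1e-10, at least 50% of the coding sequence). Shared sequence was measured against annotated transcripts, where a search of the whole genome had been planned. Levels per kb use the shortest principal mRNA with the longest coding sequence.

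The test was edgeR 4.0.16 in R 4.3.3 (TMM, filterByExpr by group, robust dispersion, quasi-likelihood F test, two-sided, group as only term), with Benjamini-Hochberg adjustment over all 17519 genes and a threshold of 0.05, checked on simulated data. Within a group, any pair of libraries differed beyond counting noise (chi-square over degrees of freedom of 7.23 to 17.5), and each counted as 1 sample. The common biological coefficient of variation was 9.65%. Named are the 8 tested genes with most and fewest copies, the 6 largest rises and falls, paralogs with their main genes, genes with a known special role, up to 2 genes per direction of each other list, and the most read copies. Rpl23, Rps14, Rpl13a, Rps7 and Rpl10a are named as the genes of these copies. Some genes and sequences that this rule takes are not reported here. Alternatives were other scalings, DESeq2 1.42.0, limma voom (limma 3.58.1), no filter, protein-coding genes only, other definitions of copies, the replicate block and each replicate left out.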

Additional observations from a re-analysis of the deposited data

How the results depend on the processing

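Of the 57 calls, between 54 and 57 were kept under the scalings, the tests, the missing filter, protein-coding genes only and the replicate block, and between 50 and 57 with 1 library left out. Leaving out 1 library gave 16 to 24 genes higher, 32 to 38 lower, a median over all genes described of −0.16 to −0.09, medians of −0.12 to 0.00082 for many-copy and −0.34 to −0.13 for few-copy genes, 349 to 433 copies higher and 6 to 9 lower. Scaling by library totals moved the median of all genes tested to −0.09, and the other scalings to 0.05 or less. The median of the ribosomal protein genes was then −0.22 with library totals only, −0.11 with RLE, −0.08 with upper-quartile scaling, scaling over unique-sequence genes or protein-coding genes only.

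Summing copies into their genes changed most: 56 higher, 14 lower, medians of 0.84 for all, 1.00 for many-copy and 0.69 for few-copy genes. The many-copy median was −0.17 with library totals only, 0.00082 without AMI-5 replicate 3, 0.080 for genes in the top tertile of copy number, 0.00080 when the split was made on shared coding 50-mers or 25-mers and 0.077 on 100-mers. Without a filter 590 copies were called higher, and DESeq2 called 5 copies lower where edgeR called 10. Fewer libraries, more rows tested or the other grouping of genes are part of these settings, and the cause was not tested further.

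Summing changed the sign of 29 of the 80 genes, among them Rpl10 (0.82), Rpl11 (3.29), Rpl22 (0.0529), Rpl22l1 (0.71), Rpl3 (3.20), Rpl39 (0.94), Rpl7 (0.31), Rpl9 (1.74), Rplp0 (0.36), Rps10 (1.39), Rps27 (0.54), Rps28 (0.33) and Rps4x (0.13). Genes near 0 that had not passed changed sign under single settings. With 1 library left out, Rpl10 ran from −0.241 to 0.0287, Rpl17 from −0.0679 to 0.238, Rpl29 from −0.0295 to 0.387, Rpl39 from −0.117 to 0.0197, Rpl8 from −0.107 to 0.0066 and Rpsa from −0.0337 to 0.282. Library totals only gave −0.0139 for Rpl17 and −0.0054 for Rpsa. Rpl39 was at 0.0083 with upper-quartile scaling, 0.0124 with scaling over unique-sequence genes and 0.0133 with protein-coding genes only.

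The scalings, the tests, the missing filter, protein-coding genes only and the replicate block each lost 0 to 3 calls and gained 0 to 3. Among named genes, such calls include Rplp0 (−0.23, adjusted p = 0.0075, with library totals only), Rpl22 (−0.17, adjusted p = 0.0218, likewise), Rpl31 (adjusted p = 0.208 with library totals only and 0.0974 with DESeq2) and Rpl38 (0.075 with DESeq2).

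Libraries with the same number in the titles did not deviate together (correlations of −0.058, −0.038 and −0.048), so no pairing by number was seen. A pairing that is small against the spread among libraries would not show in these values. The fit with the replicate block kept 54 of 57 calls and gained 2 (21 higher, 35 lower, median −0.12). Depth limits genes with few reads in the controls, such as Rps29 and Rpl24, and says nothing of reads that cannot be placed.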
